A study of Mus musculus with 58 samples.

Results

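The heart and the EDL (m. extensor digitorum longus, a fast limb muscle) of the same mice were set against each other to ask where a tumour changed expression differently in cardiac and in skeletal muscle. The members were chosen by mouse number, as the untrained mice with an array of both tissues. These were 3 tumour-bearing mice (T, mice 7, 20 and 23) and 3 control mice (C, mice 4, 13 and 19), which gave 12 of the 58 arrays of the series. All were male CD2F1 mice, the cross of BALB/c and DBA/2, of about 20 g at arrival and housed singly. T mice had been injected under the skin of the right flank with cells of C26, a mouse colon adenocarcinoma line that causes cachexia, and C mice with 0.2 ml of salt solution alone, and all were killed on day 19. Trained mice, which entered only as a separate set, had in addition stood on a plate vibrating at 45 Hz with 1.0 g of acceleration, 15 min a day (T + WBV, mice 2, 11 and 16; C + WBV, mice 6, 9 and 22). The mice were young, several weeks old by the study's methods, before 1 week of acclimatization and the 19 days of the experiment. The labels do not say why these hearts were taken, and each sample is 1 animal.

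Each value is a log2 array intensity. For every gene the level in EDL was subtracted from the level in heart within each mouse, and this difference was compared between T and C. The result equals the T minus C response in heart minus the T minus C response in EDL, and it is called the gap below. A positive gap means that the gene responded more upwards, or less downwards, in heart than in EDL. A gap was called at an adjusted p under 0.01 in limma over all 18820 genes. The median gap over all genes was 0.02. The level of a gene depends on its probes, so levels are compared between samples of a gene and never between genes.

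The labels of the tissues matched their markers. The mean level of the cardiomyocyte list was 11.35 to 11.38 in C hearts and 6.53 to 6.69 in C EDL, and that of the fast fibre list 4.58 to 4.69 in C hearts and 11.92 to 12.05 in C EDL. Replicate arrays of a tissue and group correlated at 0.99 to 0.994 over all genes, and array medians lay between 4.54 and 4.6. Mean masses of both tissues were lower in T. The mean heart mass was 142 ± 10.6 mg for C mice and 116 ± 3.93 mg for T mice (SD, n = 3), and the mean EDL mass 8.00 ± 0.557 mg for C mice and 5.90 ± 0.954 mg for T mice (SD, n = 3). In these mice neither tissue's masses overlapped between groups, and p was 0.1 for each in an exact two-sided permutation test, the smallest that 3 against 3 mice allow. EDL masses did overlap in the untrained mice without a heart array. They were 5.7, 8.3 and 6.6 mg in T mice 1, 12 and 14 and 7.3, 6.6 and 8.8 mg in C mice 8, 10 and 24. The ratio of heart mass to EDL mass was 20.1 ± 4.10 in T and 17.8 ± 2.18 in C (SD, n = 3, exact permutation p = 0.6), so a difference in relative loss of the tissues was not detectable with 3 mice a group.

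Cachexia is the loss of muscle and fat that accompanies some tumours. In skeletal muscle it is known for the FoxO transcription factors, which are held out of the nucleus by insulin and Akt signalling and which turn on ubiquitin ligases that mark contractile proteins for the proteasome. Inflammatory cytokines of the IL-6 family, acting through STAT3, and glucocorticoids act on muscle and heart alike, and both tissues have their own contractile proteins, fuel use and connective tissue.

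Across all genes, 1239 (6.58% of those tested) had a called gap. The gap was positive for 662 (3.52%) and negative for 577 (3.07%), and it exceeded 2-fold for 552. The differences of T and C mice did not overlap for any of the 1239, but the same was true of 28.5% of all genes. Within these 6 mice, the tumour effect alone was called for 2831 genes in EDL (15%; 1398 rose, 7.43%, and 1433 fell, 7.61%) and for 1577 in heart (8.38%; 752 rose, 4%, and 825 fell, 4.38%). These shares of all genes are the background for the counts of list members below. The count of called gaps depended on the model and on the mice used. It was 448 with 1 prior variance for all genes, 573 with all 18 untrained arrays and the mouse as a random block in place of within-mouse differences, and 746, 821 and 787 without C mouse 4, 13 or 19. Without T mouse 7, 20 or 23 it was 823, 1046 and 786.

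Most of the called gaps were genes that moved in EDL and stayed near their control level in heart. For 734 of the 1239 genes (59.2%) the tumour effect passed the threshold in EDL and not in heart, with a median size of 0.96 in EDL and 0.16 in heart on the log2 scale. The reverse, a call in heart and not in EDL, held for 199 genes. Another 159 genes passed in both tissues in the same direction with the larger response in EDL, 10 with the larger response in heart, and 104 passed in neither tissue alone. Calls in opposite directions were made for 33 genes, all of which had a called gap. Conversely, 624 genes were called in the same direction in both tissues without a called gap. Of the 1239 genes, 140 lay below the median level of all genes in both groups of hearts, where a fall has little room to show, and 84 did so in EDL.

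**Figure D1:**
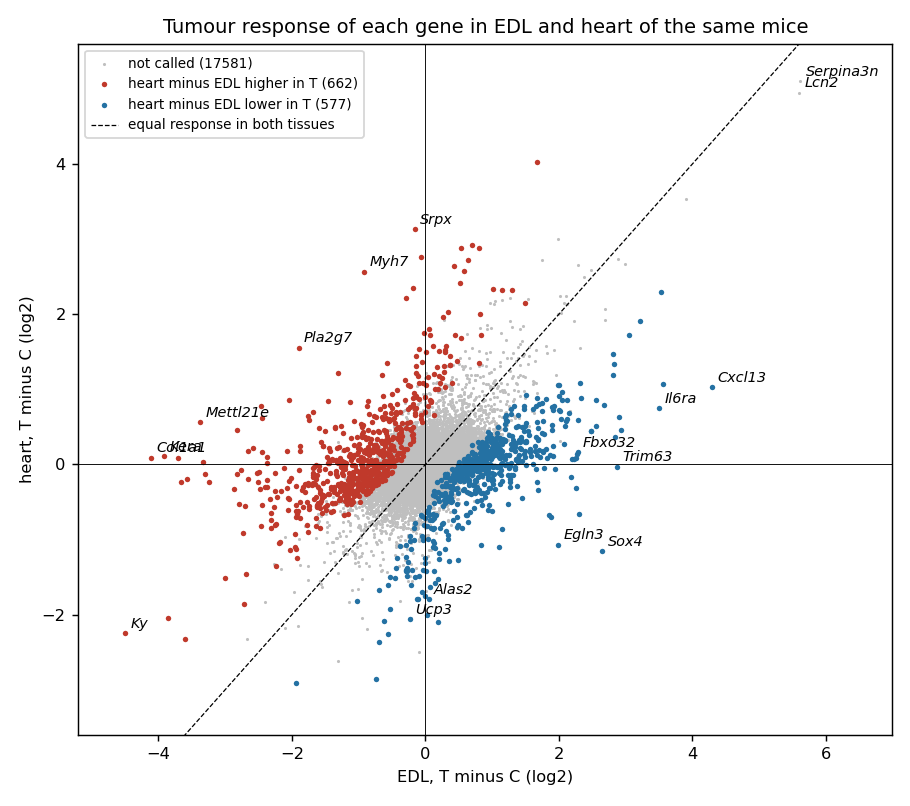
Each point is a gene, with its T minus C response in EDL on the x axis and in heart of the same mice on the y axis (log2, 3 T and 3 C mice). Red and blue points are the 662 and 577 genes with a called gap and grey points the rest; genes such as Trim63 and Col1a1 lie along the horizontal line through 0, while Lcn2 and Serpina3n lie far from 0 in both tissues.

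The best known ubiquitin ligases of atrophying muscle, Trim63 and Fbxo32, rose in EDL, while their heart responses missed the threshold. Trim63 encodes MuRF1, a ligase of thick filament proteins. Its level in EDL was 9.18, 9.65 and 9.07 in C mice 4, 13 and 19 and 12.00, 12.31 and 12.22 in T mice 7, 20 and 23, and in heart 9.44, 9.46 and 9.38 in the same C mice and 9.07, 9.33 and 9.79 in the same T mice. The control levels were thus alike in both tissues, T and C did not overlap in EDL, and in heart they did. The response was 2.87 in EDL and -0.03 in heart, a gap of -2.90 ± 0.16 (SE, limma adjusted p = 3.77e-07). Fbxo32, the F-box ligase atrogin-1, stood in EDL at 9.83, 10.31 and 9.37 in C and 11.99, 12.16 and 12.21 in T, and in heart at 9.27, 9.52 and 9.10 in C and 9.40, 9.35 and 9.62 in T, mice in the same order. Here again only the EDL groups were apart, and the gap was -2.12 ± 0.13 (SE, adjusted p = 6.15e-07).

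Of the 27 measured genes of the ubiquitin ligase and atrophy list, 13 had a negative called gap, against 3.07% of all genes, and 0 a positive one, and the median gap was -0.72. In EDL 17 of them rose and none fell, and in heart 8 rose and 2 fell. Foxo1, a FoxO factor itself, stood in EDL at 7.07, 7.26 and 6.97 in C and 9.67, 9.48 and 9.59 in T and in heart at 6.84, 7.20 and 6.98 in C and 7.46, 7.33 and 7.59 in T. The T values lay above all C values in both tissues. The rise in EDL was 2.48, the heart value was 0.45 (adjusted p = 0.0155), and the gap was -2.03 ± 0.12 (SE, adjusted p = 6.15e-07). Foxo3 had a smaller gap of -0.95 ± 0.14 (SE, adjusted p = 0.000713). Sesn1, a stress-induced inhibitor of mTORC1, and Eif4ebp1, a repressor of cap-dependent translation, rose in EDL by 2.55 and 2.48 and had gaps of -2.04 and -2.03. Ddit4, another inhibitor of mTORC1, rose in both tissues, by 3.53 in EDL and 2.30 in heart, with a gap of -1.23 ± 0.20 (SE, adjusted p = 0.00135). Mt2, a metallothionein on the same list, rose by 3.91 in EDL and 3.53 in heart, and its gap of -0.37 had a 95% interval of -1.22 to 0.47.

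The promoters of Trim63 and of 2 genes that regulate it, Foxo1 and Akt1, are shown because their transcripts rose together in EDL. Each window holds the 250 bases before the gene's start in RefSeq (GRCm38.p6), 5′ to 3′ on the gene's own strand. Capitals mark letters that match TGTTTAC (a core FoxO motif, either strand) or ACANNNTGT (the 2 arms of a glucocorticoid receptor site with 3 free bases between them). TTCNNNGAA, a STAT motif, was searched as well.
Trim63 (chr4:134314870-134315119, + strand): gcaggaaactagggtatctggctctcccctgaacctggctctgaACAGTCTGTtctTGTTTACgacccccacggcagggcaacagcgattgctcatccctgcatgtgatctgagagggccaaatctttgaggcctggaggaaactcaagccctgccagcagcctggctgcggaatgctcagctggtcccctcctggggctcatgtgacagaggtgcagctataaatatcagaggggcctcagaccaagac
Akt1 (chr12:112674885-112675134, - strand): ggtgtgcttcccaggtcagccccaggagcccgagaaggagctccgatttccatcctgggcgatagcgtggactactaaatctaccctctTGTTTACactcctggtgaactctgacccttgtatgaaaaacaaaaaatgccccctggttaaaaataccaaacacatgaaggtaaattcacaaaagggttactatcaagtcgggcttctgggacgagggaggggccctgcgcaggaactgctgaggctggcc
Foxo1 (chr3:52268087-52268336, + strand): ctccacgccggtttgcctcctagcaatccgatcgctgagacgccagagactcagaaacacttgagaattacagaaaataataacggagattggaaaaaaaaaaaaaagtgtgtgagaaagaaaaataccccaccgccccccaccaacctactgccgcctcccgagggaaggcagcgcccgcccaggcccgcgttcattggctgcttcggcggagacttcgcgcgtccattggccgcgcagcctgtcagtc
In the Trim63 window the glucocorticoid letters start 206 bases and the FoxO letters 194 bases before the gene's start. The Akt1 window, of 1 of that gene's starts, holds the FoxO letters 161 bases before the start, and the Foxo1 window holds none of the 3 motifs. Where a gene has several starts, the window with the most FoxO matches was printed. The FoxO match in the Akt1 window can thus follow from that choice. The FoxO letters occurred before 461 of the 14749 tested genes with a promoter in the table (3.13%), before 8 of 467 genes with a negative called gap (1.71%) and before 19 of 499 with a positive one (3.81%). For the glucocorticoid letters the shares were 5.7%, 4.07% and 3.41%, and for the STAT letters 7.79%, 6.21% and 8.62%. A match is a run of letters and not a measured site. Akt1, the kinase that restrains FoxO, rose by 1.34 in EDL, its heart value was 0.18 (adjusted p = 0.191), and its gap was -1.16 ± 0.13 (SE, adjusted p = 5.74e-05).

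Proteasome genes showed the same pattern at a smaller size. Of 33 measured genes, 20 had a negative called gap (60.6%, against 3.07% of all genes) and 0 a positive one, with a median gap of -0.56. In EDL 20 rose, against 7.43% of all genes, while in heart 3 rose and 4 fell, against 4% and 4.38% of all genes. Psmd8, a subunit of the regulatory lid, stood in EDL at 8.75, 9.12 and 8.87 in C and 9.98, 9.82 and 10.28 in T and in heart at 8.36, 8.50 and 8.52 in C and 8.14, 8.31 and 8.14 in T. The T values lay above all C values in EDL and below them in heart, where the response was -0.26 (adjusted p = 0.0454), with a gap of -1.37 ± 0.15 (SE, adjusted p = 4.92e-05). The core subunits Psma7 and Psma5 had gaps of -1.07 and -0.99.

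The autophagy and lysosome list was less clear cut, with 7 negative and 0 positive called gaps among 31 genes and a median gap of -0.22. Here 14 genes rose in EDL and 9 in heart. Gabarapl1, which helps to close autophagosomes, rose by 1.69 in EDL and 0.49 in heart, a gap of -1.20 ± 0.18 (SE, adjusted p = 0.000662). Ctsl, a lysosomal protease, rose in both tissues too, by 2.00 and 1.06. Npc1, which moves cholesterol out of lysosomes, is outside that list and was singled out for its small error; it rose by 2.25 in EDL, its heart value was 0.08, and its gap was -2.17 ± 0.10 (SE, adjusted p = 8.48e-08).

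**Figure D2:**
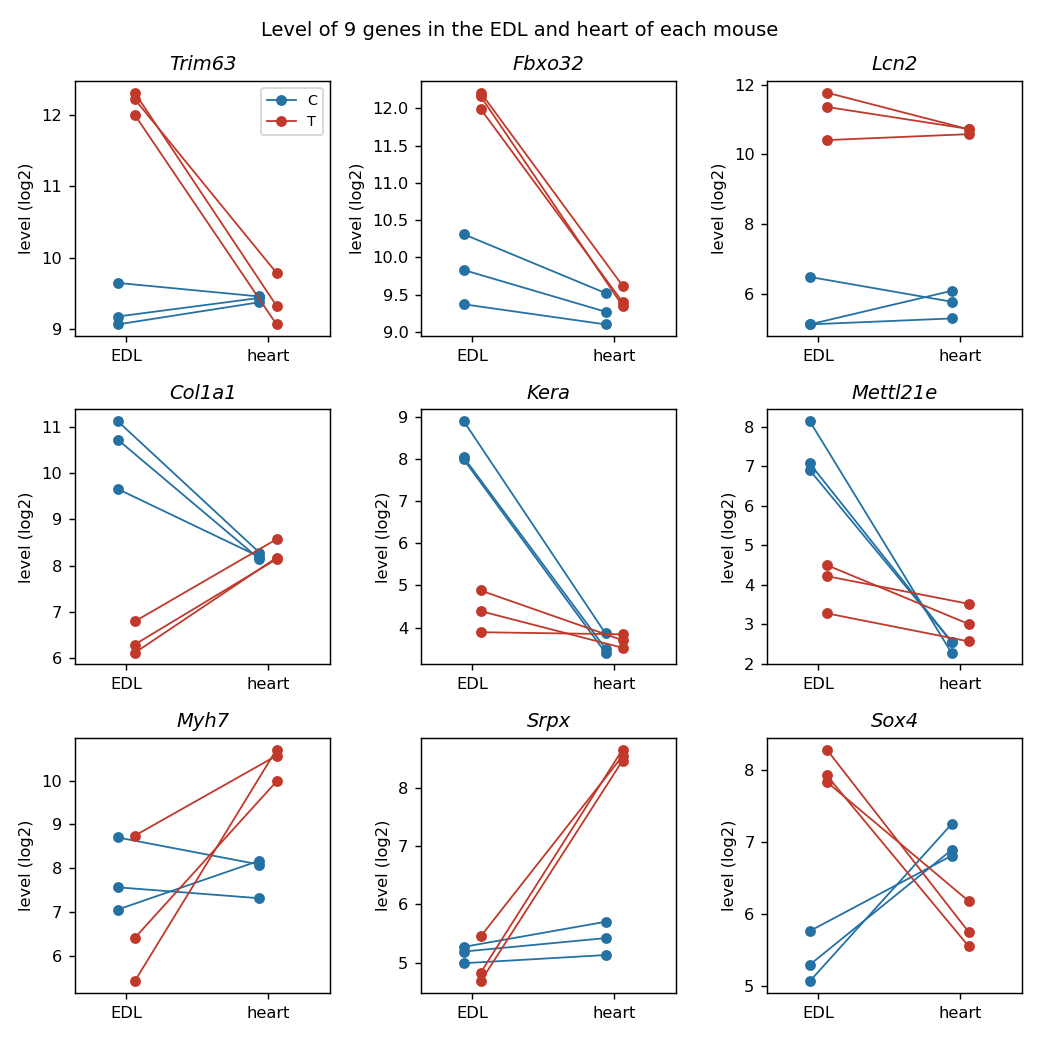
The y axis of each panel is the log2 level of a gene (scales differ between panels), and each line joins the EDL and the heart of a mouse, C in blue and T in red (3 mice each). For Trim63 and Fbxo32 the T lines part from the C lines in EDL, for Lcn2 in both tissues, and for Myh7 and Srpx in heart.

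Many acute phase and IL-6/STAT3 genes rose in both tissues. Of 32 measured genes 18 rose in EDL and 18 in heart, 16 of them in both. Of all genes, 7.43% rose in EDL and 4% in heart. Called gaps were positive for 3 (9.38%) and negative for 3 (9.38%), against 3.52% and 3.07% of all genes, and the median gap was -0.06. In this list the entry C3 was matched through a synonym to Olfr48, an olfactory receptor gene, so complement C3 itself is not among the 32. Lcn2, an iron-scavenging protein of the acute phase, stood in EDL at 5.13, 6.49 and 5.13 in C and 11.77, 10.41 and 11.36 in T and in heart at 6.09, 5.78 and 5.30 in C and 10.72, 10.58 and 10.73 in T. No T value overlapped with C in either tissue, and the rises of 5.60 and 4.95 left a gap of -0.65 with a 95% interval of -1.41 to 0.11 (adjusted p = 0.293). Serpina3n, a protease inhibitor, rose by 5.62 in EDL and 5.11 in heart, and the interval of its gap was -1.18 to 0.15. Fkbp5, a chaperone that glucocorticoids induce, rose by 2.99 and 2.66, with an interval of -0.71 to 0.05. These intervals do not show equal responses. They reach gaps of -1.41 for Lcn2 and -1.18 for Serpina3n, which is the size of some called gaps, beside rises of 4.95 or more in each tissue.

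Some receptors, transporters and regulators of the same response did differ. Il6ra, the receptor that binds IL-6, stood in EDL at 5.79, 5.96 and 5.47 in C and 9.34, 9.22 and 9.18 in T and in heart at 6.17, 6.16 and 6.05 in C and 6.73, 6.91 and 6.99 in T. It rose in both tissues without overlap, by 3.51 in EDL and 0.75 in heart, and the gap was -2.76 ± 0.15 (SE, adjusted p = 3.77e-07). Slc39a14, a zinc and iron importer, rose by 3.57 and 1.07, a gap of -2.50 ± 0.20 (SE, adjusted p = 4.45e-06), and Cebpd, a transcription factor of the acute phase, by 3.22 and 1.92, a gap of -1.30 ± 0.18 (SE, adjusted p = 0.000452). Of 23 glucocorticoid receptor targets, 14 rose in EDL and 19 in heart; 7 gaps were negative and 2 positive.

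**Figure D3:**
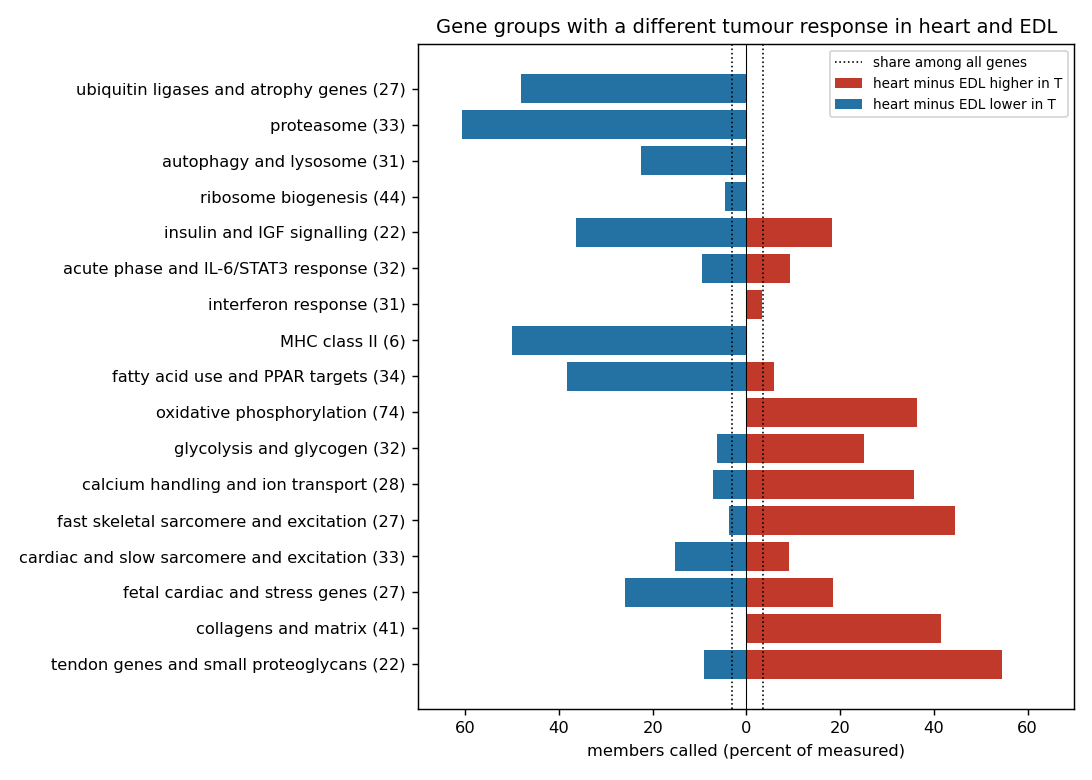
Bars give the share of the measured members of each gene group (number in brackets) with a called gap, to the right where heart minus EDL was higher in T and to the left where it was lower; dotted lines mark the shares among all genes, 3.52% and 3.07%. Proteolysis groups extend to the left only, and collagens and oxidative phosphorylation to the right only.

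Collagens and tendon genes were among the largest positive gaps. Col1a1, a chain of type I collagen, stood in EDL at 9.66, 10.73 and 11.13 in C and 6.29, 6.79 and 6.11 in T, and in heart at 8.19, 8.14 and 8.28 in C and 8.14, 8.57 and 8.17 in T. In EDL the highest T value lay far below the lowest C value, and in heart the groups overlapped. It fell by 4.11 in EDL, the heart value was 0.09 (adjusted p = 0.66), and the gap was 4.20 ± 0.26 (SE, adjusted p = 7.27e-07). Col1a2, the other chain of type I collagen, had a gap of 3.80 ± 0.24 (SE) and Col3a1, the type III chain, a gap of 2.69 ± 0.14 (SE). Of 41 collagen and matrix genes, 17 had a positive and 0 a negative called gap (median gap 0.50), 17 fell and 3 rose in EDL, and 5 fell and 9 rose in heart.

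Kera, a small proteoglycan of tendon and cornea, stood in EDL at 7.99, 8.04 and 8.90 in C and 4.39, 4.88 and 3.89 in T and in heart at 3.40, 3.50 and 3.86 in C and 3.52, 3.70 and 3.84 in T, a gap of 4.03 ± 0.27 (SE, adjusted p = 1.28e-06). The EDL groups were apart and the heart groups overlapped. Its heart levels lay below the median of all genes there, 5.15, in every mouse. Tnmd, a membrane protein of tendon cells, and Chad, a matrix protein of cartilage and tendon, had gaps of 3.42 and 3.38 and were low in heart as well. Lum, a small proteoglycan of connective tissue in general, was not low in heart (8.48, 8.45 and 8.42 in C and 8.12, 8.44 and 8.16 in T) and had a gap of 2.16 ± 0.17 (SE, adjusted p = 4.86e-06). Of 22 tendon and small proteoglycan genes, 12 had a positive and 2 a negative called gap. Those with a negative gap were Aspn, a small proteoglycan (-0.68), and Fibin, a secreted protein, which rose by 2.30 in EDL and had a gap of -2.96 ± 0.25 (SE, adjusted p = 8.44e-06).

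The fibroblast marker list moved with these genes. Its mean level was 7.86 to 8.23 in C EDL and 6.57 to 6.93 in T EDL, against 8.74 to 8.86 in C and 8.91 to 9.18 in T hearts. Of its 9 measured genes, 6 had a positive called gap, 4 fell in EDL and 4 rose in heart. Col1a1, Col3a1 and Lum are on the list too. Its part in the gaps of the collagens and tendon genes was not tested. Each EDL was cut, with a piece kept for histology, and the amount of tendon in each piece is not given. In these pieces of whole tissue, fewer cells of a type and less RNA per cell cannot be told apart.

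Genes of fast fibres and of their excitation had mostly positive gaps. Of 27 genes of the fast sarcomere and excitation list, 12 had a positive and 1 a negative called gap, 14 fell in EDL, and 17 were at or below the median level in heart. Mettl21e, a lysine methyltransferase of muscle outside that list, stood in EDL at 7.07, 8.14 and 6.90 in C and 4.22, 3.28 and 4.50 in T and in heart at 2.56, 2.28 and 2.56 in C and 3.52, 2.57 and 3.01 in T. T lay below C in EDL and, at low levels, above C in heart, and the gap was 3.94 ± 0.36 (SE, adjusted p = 1.65e-05). Sypl2, a protein of the triad membrane, fell by 2.59 in EDL (gap 2.81 ± 0.31, SE), and Stac3, which couples the calcium channel to the ryanodine receptor, fell by 1.68 (gap 1.51 ± 0.16, SE). Contractile and pump genes of fast fibres differed among themselves. Mybpc2, the fast myosin binding protein, fell by 0.88 in EDL and rose by 0.78 in heart (gap 1.66 ± 0.14, SE, adjusted p = 9.19e-06), and Mylpf, the fast regulatory light chain, fell by 0.65 in EDL with a heart value of 0.31 (gap 0.96 ± 0.15, SE, adjusted p = 0.000827). For the pair that follows the gap missed the threshold. Myh4, the fastest myosin heavy chain, stood at 12.86, 13.02 and 12.93 in C and 12.76, 12.75 and 12.57 in T EDL and had a gap of 0.36 (95% interval 0.02 to 0.71), and Atp2a1, the calcium pump of fast fibres, had a gap of -0.19 (95% interval -0.61 to 0.23).

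Calcium and ion transport genes had 10 positive and 2 negative called gaps among 28 (35.7% and 7.14%, against 3.52% and 3.07% of all genes). Among them, Atp1b2, a beta subunit of the sodium pump, fell by 1.93 in EDL (gap 1.65 ± 0.23, SE), and Slc8a3, a sodium-calcium exchanger, by 1.40 (gap 1.48 ± 0.21, SE). In glycogen metabolism the genes went both ways. Phka1, a regulatory subunit of phosphorylase kinase, fell by 1.36 in EDL and rose by 0.48 in heart, and Pgm1, which interconverts glucose phosphates, had a gap of 1.80 ± 0.14 (SE, adjusted p = 4.45e-06). Ppp1r3c, which targets a phosphatase to glycogen, rose by 2.26 in EDL, with a heart value of -0.31 (adjusted p = 0.183) and a gap of -2.57 ± 0.23 (SE, adjusted p = 1.25e-05). Of 32 glycolysis and glycogen genes, 8 gaps were called positive and 2 negative (25% and 6.25%, against 3.52% and 3.07% of all genes). Their list entry Gpi1 was matched through a synonym to another gene, Pigq.

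Respiratory chain genes fell further in EDL than in heart. Of 74 measured oxidative phosphorylation genes, 65 fell in EDL and 21 in heart, none rose in either, and 27 had a positive called gap, none a negative one. Of all genes, 7.61% fell in EDL, 4.38% fell in heart and 3.52% had a positive called gap. The median response was -0.60 in EDL and -0.20 in heart, and the median gap 0.39. Ndufv3, a subunit of complex I, stood in EDL at 8.30, 8.38 and 8.42 in C and 7.29, 7.35 and 7.02 in T and in heart at 8.32, 8.20 and 8.37 in C and 8.01, 8.04 and 8.07 in T. T lay below C in both tissues, and the gap was 0.89 ± 0.13 (SE, adjusted p = 0.000508). Atp5g3, a subunit of the ATP synthase ring, fell in both tissues, by 0.95 in EDL and 0.25 in heart, with a gap of 0.70 ± 0.10 (SE, adjusted p = 0.000674). Ppargc1a, a coactivator of mitochondrial genes, rose by 0.67 in EDL and had a heart value of 0.06, and its gap of -0.62 ± 0.19 (SE) missed the threshold (adjusted p = 0.0492).

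Called gaps of fatty acid genes mostly had the opposite sign. Of 34 fatty acid use and PPAR target genes, 13 had a negative and 2 a positive called gap, with 10 rising and 5 falling in EDL and 2 rising and 7 falling in heart. Cd36, the fatty acid transporter, rose by 0.73 in EDL, and its heart value was 0.04 (gap -0.69 ± 0.10, SE, adjusted p = 0.000445). Pdk4, which shuts off pyruvate entry to the citrate cycle, had a gap of -1.66 ± 0.28 (SE, adjusted p = 0.00155), though neither its EDL value of 1.37 nor its heart value of -0.28 passed alone. The call was lost with 1 prior variance for all genes (adjusted p = 0.0229), without pairing by mouse (0.116) and with all 18 untrained arrays (0.106). Ucp3, a mitochondrial carrier, stood in EDL at 9.42, 9.72 and 8.94 in C and 8.66, 10.11 and 8.62 in T and in heart at 8.25, 8.44 and 7.26 in C and 5.79, 7.13 and 4.86 in T. The hearts did not overlap between groups, although the T hearts spread widely, and the EDL overlapped. The heart response was -2.06 (adjusted p = 0.0116) and the EDL value -0.23. The within-mouse gap was -1.83 ± 0.21 (SE, adjusted p = 7.72e-05), and it was -0.29 in the trained mice.

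Signalling of insulin and IGF had 8 negative and 4 positive called gaps among 22 genes (36.4% and 18.2%, against 3.07% and 3.52% of all genes). Igfbp5, which binds IGF in the matrix, fell by 2.47 in EDL (gap 2.15 ± 0.22, SE), and Igfbp3, the main carrier of IGF in blood, rose by 2.33 in EDL and 0.88 in heart (gap -1.44 ± 0.20, SE). Mstn, the muscle growth inhibitor myostatin, had values of 0.99 in EDL and -0.62 in heart and a gap of -1.62 ± 0.24 (SE, adjusted p = 0.00069), though it was low in heart at 3.78, 3.75 and 3.68 in C and 3.25, 3.21 and 2.90 in T. Among 9 polyamine genes, Smox, which oxidises spermine, fell by 1.57 in EDL with a heart value of 0.30 (gap 1.88 ± 0.12, SE), Sms, which makes spermine, fell by 0.82 in EDL (gap 1.11 ± 0.10, SE), and Sat1, which acetylates polyamines, rose by 1.51 in EDL and 0.56 in heart (gap -0.96 ± 0.14, SE). Among 16 clock genes, Rora, an activator of Bmal1, rose by 1.59 in EDL with a heart value of 0.11 (gap -1.48 ± 0.10, SE, adjusted p = 1.17e-06). In this list 3 called gaps were negative and 2 positive (18.8% and 12.5%, against 3.07% and 3.52% of all genes). The hour of death is not given in the labels. For ribosomal proteins no gap was called among 50 genes in limma (11 had an unadjusted p under 0.05). For ribosome biogenesis 2 of 44 were called, all negative (4.55%, against 3.07% of all genes). Of these 44 genes, 23 rose in EDL and 4 in heart, against 7.43% and 4% of all genes.

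A smaller set of genes passed in heart and not in EDL. Myh7, the slow beta myosin heavy chain that the adult mouse ventricle has mostly replaced by the alpha form, stood in heart at 7.31, 8.08 and 8.17 in C and 9.98, 10.57 and 10.71 in T and in EDL at 7.56, 8.70 and 7.05 in C and 6.40, 8.74 and 5.41 in T. The hearts did not overlap, whereas EDL of T ranged both below and above C. The rise in heart was 2.57 ± 0.22 (SE, adjusted p = 2.81e-05), the EDL value -0.92 ± 0.64 (SE), and the gap 3.49 ± 0.64 (SE, adjusted p = 0.00292). The call of the gap was lost without C mouse 4, C mouse 13 or T mouse 7, where its adjusted p was 0.0148, 0.0164 and 0.0116. Srpx, a sushi-domain protein, stood in heart at 5.13, 5.42 and 5.70 in C and 8.65, 8.46 and 8.54 in T and in EDL at 4.99, 5.19 and 5.27 in C and 4.83, 4.68 and 5.45 in T. The T hearts lay far above all other samples, for a gap of 3.29 ± 0.20 (SE, adjusted p = 7.27e-07).

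Chemokines and other secreted proteins were among these genes. Ccl8, a chemokine for monocytes, rose by 2.77 in heart with an EDL value of -0.06 (gap 2.83 ± 0.32, SE, adjusted p = 8.61e-05), and Cxcl14, a chemokine of epithelia and stroma, rose by 2.64 with an EDL value of 0.42 (gap 2.22 ± 0.12, SE, adjusted p = 4.34e-07). Apod, a lipid carrier, rose in both tissues, by 4.03 in heart and 1.67 in EDL (gap 2.36 ± 0.15, SE). Ahsg and Fetub, the fetuins, and Cnmd, chondromodulin, rose in heart by 2.34, 2.89 and 2.21, with EDL values of -0.18, 0.54 and -0.29, and gaps of 2.52, 2.35 and 2.50. Cxcl13, a chemokine for B cells, went the other way, rising by 4.30 in EDL with a heart value of 1.03 (adjusted p = 0.393) and a gap of -3.27 ± 0.48 (SE, adjusted p = 0.000618). Of 17 complement genes 10 rose in heart and 1 in EDL, against 4% and 7.43% of all genes. Only 2 gaps were called, both positive (11.8%, against 3.52% of all genes). The macrophage list had 5 of 11 genes rising in heart and none in EDL, but 1 gap was called, a positive one (9.09%, against 3.52% of all genes). Its median response was 0.39 in heart and 0.30 in EDL. The mean level of the list ranged from 6.56 to 7.14 in C and 7.30 to 7.48 in T hearts. In EDL that level ranged from 4.86 to 5.45 in C and 5.07 to 5.85 in T. The part of macrophages in these rises was not tested. The neutrophil list had 6 of 11 genes rising in EDL and 5 in heart, against 7.43% and 4% of all genes. It had no called gap, while 3 of its genes had an unadjusted p under 0.05 in limma.

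Falls that passed in heart and not in EDL included genes of antigen presentation. Cd74, the invariant chain of MHC class II, stood in heart at 9.43, 9.13 and 8.27 in C and 6.31, 6.94 and 6.49 in T and in EDL at 7.17, 6.72 and 6.46 in C and 5.64, 6.46 and 6.15 in T. The heart groups were far apart, and the EDL groups met at one level. The fall in heart was 2.36, the EDL value -0.70 (adjusted p = 0.0291), and the gap -1.66 ± 0.16 (SE, adjusted p = 2.75e-05). Of 6 class II genes, 5 fell in heart, none passed in EDL, and 3 had a negative called gap. Mki67, a marker of dividing cells, fell by 1.70 in heart, with a gap of -1.64 ± 0.27 (SE, adjusted p = 0.00155). Of the 24 measured cell cycle genes, 5 fell in heart and 3 in EDL, against 4.38% and 7.61% of all genes. Among them 2 (8.33%) had a negative and 1 (4.17%) a positive called gap, against 3.07% and 3.52% of all genes. At or below the median level in heart were 17 of the 24. Acta2, the actin of smooth muscle, fell by 1.42 in heart with an EDL value of -0.28 (gap -1.13 ± 0.14, SE, adjusted p = 0.000141). Of the 8 smooth muscle and pericyte markers, 1 rose and 1 fell in heart, Acta2 alone had a called gap, and the median gap was 0.04.

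Several negative gaps were in genes that mark the atria, fat or blood. Bmp10, made by atrial myocytes, stood in heart at 9.12, 8.89 and 9.33 in C and 7.66, 7.05 and 7.72 in T, a gap of -1.71 ± 0.21 (SE, adjusted p = 0.000172). The mean level of the 7 atrial markers was 9.18 to 9.62 in C and 8.29 to 8.98 in T hearts. These markers did not all go 1 way, as 3 had a negative and 1 a positive called gap. Pck1, the enzyme of glyceroneogenesis in fat, stood in heart at 6.10, 7.28 and 5.96 in C and 4.05, 4.35 and 4.93 in T, a gap of -2.02 ± 0.32 (SE, adjusted p = 0.00102). The mean level of the 9 adipocyte markers was 6.47 to 7.80 in C and 5.87 to 6.22 in T hearts, and 2 of them had a negative and 0 a positive called gap. Alas2, the erythroid enzyme of haem synthesis, stood in heart at 9.58, 8.98 and 8.55 in C and 5.83, 8.35 and 7.54 in T, a value of -1.80 that missed the threshold in heart alone (adjusted p = 0.0301). Its gap of -1.85 ± 0.24 (SE, adjusted p = 0.000271) was 0.03 in the trained mice. How much atrium, fat or blood each heart sample held is not given, and its part in these gaps was not tested. Within the cardiomyocyte list, 1 of 11 genes had a called gap, Actc1, the cardiac actin, which fell by 2.41 in EDL and 0.30 in heart. Tnni3, cardiac troponin I, had a gap of 0.05 (95% interval -0.30 to 0.39).

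Opposite calls in the same mice were made for 33 genes. Sox4, a transcription factor of progenitor cells, stood in EDL at 5.29, 5.76 and 5.06 in C and 8.29, 7.93 and 7.84 in T and in heart at 6.89, 6.81 and 7.25 in C and 5.75, 5.55 and 6.18 in T. All T values lay above all C values in EDL and below them in heart, with responses of 2.65 and -1.15 and a gap of -3.80 ± 0.27 (SE, adjusted p = 2.12e-06). Egln3, an oxygen-sensing prolyl hydroxylase, stood in EDL at 9.30, 8.80 and 9.37 in C and 11.33, 11.06 and 11.07 in T and in heart at 9.54, 9.05 and 9.74 in C and 8.42, 8.45 and 8.26 in T. The levels of C were alike in both tissues and moved apart in T, by 1.99 and -1.07, a gap of -3.06 ± 0.10 (SE, adjusted p = 7.44e-09).

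Pla2g7, a secreted phospholipase that breaks down platelet-activating factor, crossed in the reverse sense. It stood in EDL at 7.94, 8.95 and 8.24 in C and 6.16, 6.51 and 6.77 in T and in heart at 6.71, 6.54 and 6.57 in C and 8.17, 8.26 and 8.06 in T, a gap of 3.46 ± 0.25 (SE, adjusted p = 2.54e-06). T lay below all C values in EDL and above them in heart. Cntfr, the receptor of ciliary neurotrophic factor, fell by 2.04 in EDL and rose by 0.86 in heart (gap 2.90 ± 0.15, SE), Tmtc1, an O-mannosyltransferase, by 1.31 and 1.22 (gap 2.53 ± 0.13, SE), and Lrp4, the agrin receptor of the neuromuscular junction, by 0.64 and 1.19 (gap 1.83 ± 0.18, SE). Hcn4, the pacemaker channel, rose by 0.83 in EDL and fell by 1.07 in heart (gap -1.90 ± 0.21, SE). Ky, a muscle protein whose loss deforms the spine of mice, fell in both tissues, by 4.50 in EDL and 2.25 in heart, and still had a gap of 2.25 ± 0.17 (SE, adjusted p = 3.1e-06).

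The trained mice are other animals and gave the same comparison anew. Their gaps had the sign of the untrained ones for 1224 of the 1239 genes (98.8%, against 67.3% of all genes), and 874 had an unadjusted p under 0.05 with the same sign. No trained gap passed the threshold in limma (0% of genes; 2621 had an unadjusted p under 0.05), and over the 1239 genes the median ratio of trained to untrained gap was 0.631. The 1239 genes were chosen by their called gaps in the untrained mice, so smaller gaps in other mice can follow from that choice alone. The gap of Trim63 was -1.68 in trained mice, that of Col1a1 2.58 and that of Sox4 -2.00. T + WBV mouse 16 stood apart. Over the 1239 genes its heart minus EDL difference was shifted from the mean of its controls, in the called direction, by a median of 0.151, against 0.916 in T + WBV mouse 2 and 0.709 in T + WBV mouse 11. Its body mass was 100.9% of the starting mass on day 19, against 82.2% and 87.8%. Without mouse 16, 860 gaps passed in the trained mice, of which 631 were among the 1239 with the same sign, the median ratio was 0.867, and the gap of Trim63 was -2.40, that of Col1a1 3.20 and that of Sox4 -2.70. Mouse 16 had the smallest shift of the T + WBV mice over these same 1239 genes. A higher ratio without it follows from that choice and is not separate support. With any other trained mouse left out instead, 0 gaps passed. The test of the difference between untrained and trained gaps called 0 genes in limma (911 had an unadjusted p under 0.05), so a difference with training was not detectable at this number of mice.

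**Figure D4:**
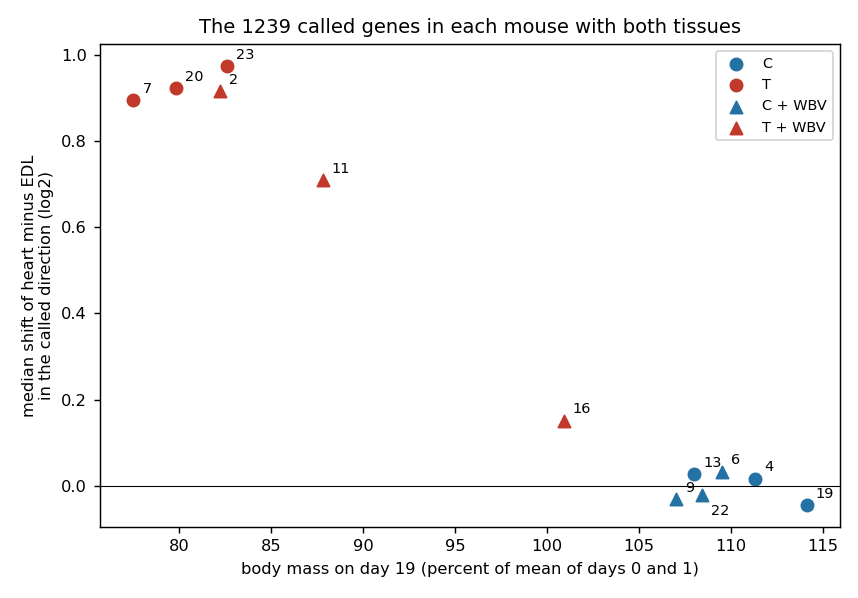
Each point is a mouse with both tissues (number beside it), with body mass on day 19 as a percentage of the mean of days 0 and 1 on the x axis and, on the y axis, the median over the 1239 genes of the shift of its heart minus EDL difference from the mean of its controls, in the called direction (log2; for a control, from the other 2 controls). The genes were chosen on the untrained mice (circles), so only the trained mice (triangles) are separate measurements; mouse 16 lies between the other T + WBV mice and the controls on both axes.

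The EDL side was also measured in 3 T mice (1, 12 and 14) and 3 C mice (8, 10 and 24) whose hearts were not analysed here. Of the 734 genes that passed in EDL and not in heart, 732 had the same sign in these EDL (against 72.6% of all genes) and 5 were called, among 37 called in all (0.197%). T mouse 14 stood apart in body mass, at 91% of the starting mass against 79.3% and 78.5% in T mice 1 and 12. Without T mouse 14, 2375 genes passed, 1947 of them among the 2831 of the paired mice with the same sign. With any other of these mice left out instead, 0 to 20 genes passed. The count of 2375 thus rests on the choice of mouse 14 and is not separate support. With all 6 of these mice, the EDL response of Trim63 was 2.44, that of Fbxo32 2.14 and that of Col1a1 -2.71. Without T mouse 14 these responses were 2.85, 2.31 and -3.59.

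With the SOL (m. soleus, a slow muscle) of the same 6 mice in place of EDL, the heart minus SOL comparison called 531 genes (2.82%). It shares the hearts with the comparison above, so its calls are not separate support. Side by side, Trim63 had a gap of -2.90 against EDL and -1.67 against SOL, Fbxo32 -2.12 and -0.32, Col1a1 4.20 and 4.09, Gdap1, a mitochondrial fission protein, 3.36 and 0.30, Sox4 -3.80 and -1.33, and Ucp3 -1.83 and 0.63. The SOL responses were 0.48 for Fbxo32 (adjusted p = 0.0263) and 1.64 for Trim63 (adjusted p = 0.000147), against 2.28 and 2.87 in EDL. The Ucp3 gap changed its sign, with a SOL response of -2.69.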

How the data were processed

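The authors hybridised 100 ng of RNA of each sample to GeneChip Mouse Gene 1.1 ST arrays and deposited log2 intensities made with RMA, which corrects background, quantile-normalizes arrays and summarizes probes; the sources used here name no version of it. Array medians were alike in both tissues, so a response is relative to the other genes of an array. The deposited table has 35556 probe sets of the array's own design, of which 21218 carry 1 symbol in GEO's annotation, 1881 several and 12457 none. Probe sets with 1 symbol were averaged into 18820 genes.

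Heart minus EDL was taken within each mouse, matched by mouse number, and compared between T and C in limma 3.58.1 (R 4.3.3, empirical Bayes with a variance trend on level, residual df 4, prior df 8.83) with Benjamini-Hochberg adjustment. EDL, heart, trained and other mice were fitted in the same way, each on its own arrays. Masses were compared with exact permutation tests. The fits were tested on simulated data. Alternatives were other variance priors, a further quantile normalization, a filter on level, single probe sets, other sets of mice and leaving out each mouse.

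The members, the 42 gene lists and the tests were chosen with earlier results of these data known. Of 936 measured list entries, 11 were matched through a synonym of their symbol. Some of these matches reached a different gene, as with C3 (Olfr48), Saa1 (Saa2) and Gpi1 (Pigq), and the list counts include them. Named genes are the 12 largest called gaps in each direction, 6 opposite calls, up to 3 members per list, and genes the study discusses. Foxo1, Foxo3, Ddit4, Serpina3n, Mt2, Fkbp5, Apod, Ahsg, Fetub, Cnmd, Npc1, Cd36 and Aspn were chosen after their values were seen. Promoters are from RefSeq (GRCm38.p6) and matched 14749 of the 18820 genes by symbol. T and C mice share replicate numbers of the hearts, which name no litter or day; the deviations of equally numbered mice correlated at 0.00763, 0.0366 and 0.0149, so the numbers were not used as pairs. The array description of the EDL of C mouse 19 carries an added suffix whose meaning is not given. The number of arrays limits the precision.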

Additional observations from a re-analysis of the deposited data

Results flagged for a closer look

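The tumour effect was tested for a difference between heart and EDL, and it differed for 1239 genes. For 33 of them the effect was called in opposite directions in the 2 tissues. Those described above or among the named genes had positive gaps of 3.46 (Pla2g7), 3.25 (Lrrc38, a channel subunit), 2.90 (Cntfr), 2.53 (Tmtc1), 1.84 (Phka1), 1.83 (Lrp4) and 1.66 (Mybpc2, the fast myosin binding protein), where EDL fell and heart rose. They had negative gaps of -3.80 (Sox4), -3.06 (Egln3), -2.58 (Zim1, a zinc finger gene), -1.90 (Hcn4) and -1.89 (Gadd45a, a stress gene), where EDL rose and heart fell. Zim1 and Lrrc38 changed at low heart levels, with means of C hearts at 4.42 and 2.99.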

How the results depend on the processing

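The count of called gaps, 1239, was 448 with 1 prior variance for all genes, 446 over single probe sets, 694 with the 12 mice of all 4 groups in 1 fit, 573 with all 18 untrained arrays and the mouse as a random block, 531 with SOL in place of EDL, 2326 at an adjusted p under 0.05, and 746 to 1046 with each mouse left out, lower by over 1.5 times without each of them but T mouse 20. It was 1139 with the replicate number of the hearts as a block, and under that block 114 of the 116 named genes with a called gap kept their call. Of these 116 genes, 94 kept their call in every setting that left out a mouse, 82 with 1 prior variance, 115 after quantile normalization within the tissue, 95 without pairing by mouse, 86 in the 12-mouse fit, 68 with all 18 arrays and 67 with SOL. Of the genes described above, Myh7, Tnmd, Cxcl13, Slc39a14, Cebpd, Psma7, Gabarapl1, Ctsl, Pdk4, Sat1, Ndufv3, Atp5g3, Pgm1, Ucp3, Ky, Col3a1, Igfbp3, Atp1b2, Slc8a3, Alas2, Lum, Akt1, Foxo3, Ddit4 and Cd36 lost the call with all 18 arrays, with an adjusted p of 0.0109 (Cebpd) to 0.106 (Pdk4). With SOL, the sign of the gap turned for Ctsl (0.0334), Vldlr (0.38), Smox (-0.0375), Ucp3 (0.63) and Cd36 (0.0366), and for no other of them in any setting.

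The EDL count was 4377 at an adjusted p under 0.05 and 1968 to 2597 with each mouse left out. The heart count was 770 with 1 prior variance, 842 over single probe sets, 2924 at an adjusted p under 0.05 and 885 to 1488 with each mouse left out, of which the counts without T mouse 7, T mouse 23 and C mouse 4, 994, 885 and 1031, were lower by over 1.5 times. The trained count, 0, was 4 at an adjusted p under 0.05, 2 with the replicate block and 0 to 860 with each mouse left out, the 860 being without T + WBV mouse 16. The count for the other EDL, 37, was 20 over genes above the median level, 3 over single probe sets, 353 at an adjusted p under 0.05 and 0 to 2375 with each mouse left out, the 2375 being without T mouse 14, and it was 0, 20, 0, 2 and 1 without T mouse 1, T mouse 12, C mouse 8, C mouse 10 and C mouse 24. The excess of the heart to EDL mass ratio in T, 2.30, was -0.694 for medians and -0.0621 to 3.63 with each mouse left out, the negative value being without T mouse 7. The cause of these shifts was not tested. The number of mice and the arrays' low signal for some genes limit what can be called.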
